A study of Mus musculus with 7 samples.

Results

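Myl7 and Myh6 encode myosin subunits of atrial muscle, and both were read on arrays of whole embryonic mouse hearts that carried or lacked Myc. They are 2 of the 7413 genes that could be named on the array, and each had 1 of its 24048 targets, the bead-bound oligonucleotides whose brightness reports a transcript. The pair was chosen by its measured signals, which were seen over the 7 arrays and by genotype before it was singled out, so the values of both genes are given as a description with no test. The samples were 3 wild-type hearts and 4 Myc-null hearts, each on its own array. Sample titles place all hearts at E13.5 of embryonic life, and another label gives a window of E12.5-15.5. The means, time and cell type of Myc loss, the strain, the litters and any pooling of hearts are not given in the sources used here, so p-values measure only the spread between these 7 samples. The protocols name cardiac myocyte RNA but describe whole dissected hearts, and 100 ng of total RNA was used.

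Muscle myosin is built from heavy chains, which carry the motor, and light chains, which stiffen and tune it. Myl7 encodes the atrial regulatory light chain and Myh6 the alpha heavy chain. Both are made along the early heart tube and are then held mainly in the atria of the fetal mouse, while the ventricles rely on Myl2, Myl3 and the beta heavy chain Myh7, and the mouse ventricle turns Myh6 up around birth as thyroid hormone rises. In an RNA sample of a whole heart, fewer atrial cells and less of these transcripts per cell cannot be told apart.

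The promoters of both genes are shown because the genes are described as a pair and their start regions can be set side by side. The sequences are from RefSeq on build GRCm38.p6, and each runs from 250 bases before to 50 bases after the start given there, at chr11:5898733-5899032 for Myl7 and chr14:54966558-54966857 for Myh6, both on the minus strand and written in the direction of transcription. Both genes were found in the RefSeq promoter set by gene identifier. The Myl7 start used is the upstream end of the gene as RefSeq gives it, at 5898782. The Myh6 start used lies inside the gene, whose upstream end is at 54968017, and a window at that end was not searched. Capitals mark matches to 5 searched motifs on either strand. These were the TATA box spelled TATAAA, the M-CAT motif of TEAD factors spelled CATTCC, the GATA factor motif spelled GATAA, and the CArG box and MEF2 motif in their usual degenerate forms. The E-box, spelled CANNTG, was searched too and is left in lower case.
Myl7 promoter: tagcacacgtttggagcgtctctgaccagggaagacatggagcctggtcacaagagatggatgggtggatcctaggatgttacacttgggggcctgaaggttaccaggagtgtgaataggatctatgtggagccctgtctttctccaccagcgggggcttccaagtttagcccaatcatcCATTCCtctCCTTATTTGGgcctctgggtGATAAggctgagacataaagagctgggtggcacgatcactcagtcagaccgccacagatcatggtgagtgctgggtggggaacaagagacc
Myh6 promoter: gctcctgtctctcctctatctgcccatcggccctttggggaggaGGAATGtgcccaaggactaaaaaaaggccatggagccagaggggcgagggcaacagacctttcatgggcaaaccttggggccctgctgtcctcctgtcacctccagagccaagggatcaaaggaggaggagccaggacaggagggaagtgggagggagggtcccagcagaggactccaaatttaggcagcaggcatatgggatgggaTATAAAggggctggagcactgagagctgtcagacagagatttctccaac

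The Myl7 window held an M-CAT motif from position -70, a CArG box from position -61 and a GATA motif from position -41, counted from the start, with an E-box from position -168. It held neither a TATA box nor a MEF2 match. The Myh6 window held a TATA box from position 2, an M-CAT motif on the other strand from position -206 and an E-box from position -13, and no CArG box, GATA or MEF2 match. The motifs in common were therefore M-CAT and the E-box. Of 32851 promoter windows of this length, 14.7% held an M-CAT motif, 72.3% an E-box, 25.4% a GATA motif, 13.6% a TATA box, 1.63% a CArG box and 3.19% a MEF2 match. The CArG box overlapped no other marked match. The matches are descriptions of letters, and binding was not measured. The base composition was close, with 53.7% G and C for Myl7 and 57.3% for Myh6.

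The arrays detected between 8573 and 9678 targets each, and 9066 units (genes with a name, or single targets without) passed the detection filter and were tested. Wild-type 3 and Myc-null 2 stood apart from the other arrays. On wild-type 3, 791 units lay at least 1 log2 unit below their median over the arrays and on Myc-null 2 92 did, against 3 to 18 on the other 5, and the median correlation with the other arrays over units was 0.935 and 0.964, against 0.980 to 0.986. All arrays lay on 1 BeadChip with wild-type hearts at positions A to C and Myc-null hearts at E to H, so position and genotype cannot be told apart. In the limma fit of Myc-null against wild-type over all units, 0 units passed an adjusted p of 0.05 (0% of 9066; smallest adjusted p 0.76) and 485 had an unadjusted p under 0.05, which is 5.35%.

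Myl7, the light chain, gave normalized signals of 15399, 7628 and 13793 in wild-type hearts 1, 2 and 3. In Myc-null hearts 1 to 4 it gave 14642, 14754, 8114 and 17149. Wild-type 2 and Myc-null 3 were low and the other 5 hearts lay between 13793 and 17149, so that each genotype held a single low heart and the groups overlapped. The means were 12273 ± 4100 (SD, n = 3) in wild-type and 13665 ± 3880 (SD, n = 4) in Myc-null hearts. The Myc-null mean was 0.16 higher on the log2 scale, with a standard error of 0.34 in the limma fit, so the difference was smaller than the spread between hearts. From the lowest to the highest heart the signal differed 2.25-fold, or by 1.17 log2 units.

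Myh6, the heavy chain, gave 1845, 792 and 1525 in wild-type hearts 1 to 3. In Myc-null hearts 1 to 4 it gave 2089, 1383, 951 and 1183. The lowest hearts were again wild-type 2 and Myc-null 3, the highest was Myc-null 1, and the groups overlapped over almost the whole range. The means were 1388 ± 540 (SD, n = 3) and 1402 ± 491 (SD, n = 4), and the log2 difference was 0.04 with a standard error of 0.37. The highest heart was 2.64-fold above the lowest, or 1.40 log2 units. Non-overlap of the groups was seen for 619 of 9066 units (6.83%) and for neither myosin. In the authors' deposited table of difference scores, whose direction is not stated, Myl7 had a score of 2.35 and Myh6 of 0.40.

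**Figure D1:**
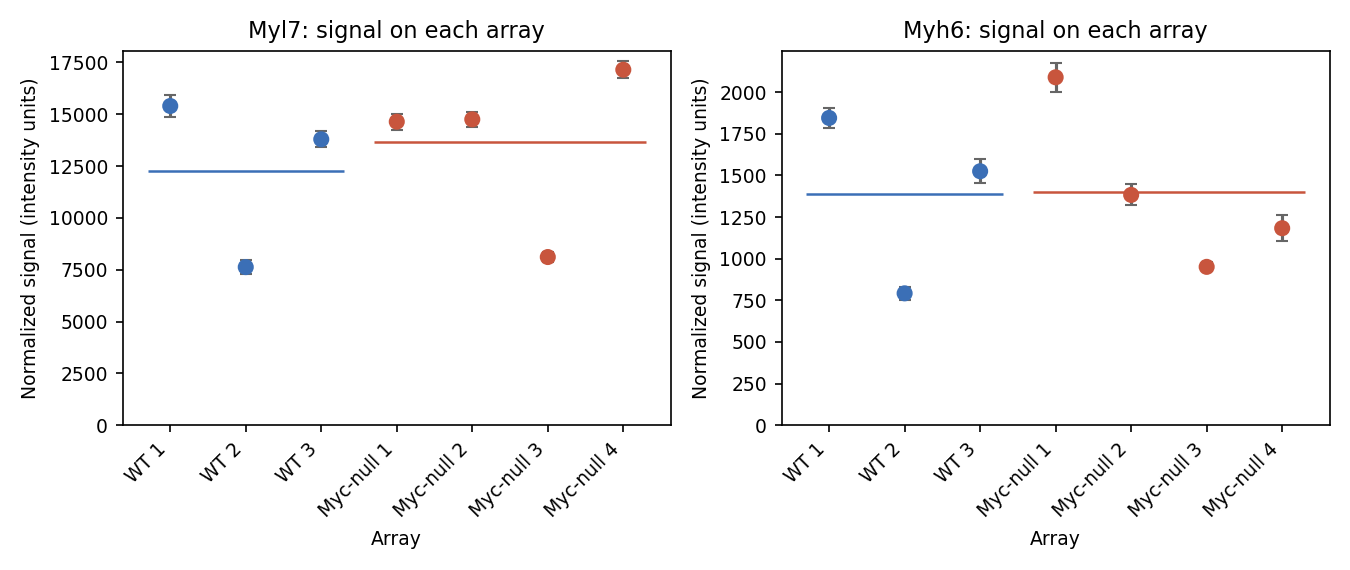
Normalized signal in intensity units of Myl7 (left) and Myh6 (right) on each array, wild-type in blue and Myc-null in red, with bars for the deposited bead standard deviation and horizontal lines for group means. Wild-type 2 and Myc-null 3 are the lowest points in both panels, and the lines of the 2 genotypes lie close together.

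Without wild-type 2 the sign turned for both genes, to a log2 difference of -0.15 for Myl7 and -0.32 for Myh6. Without Myc-null 3 the differences were 0.40 and 0.21, and without wild-type 1 they were 0.36 and 0.29. Leaving out wild-type 3 gave 0.28 and 0.15, and leaving out Myc-null 1 gave 0.11 and -0.17. Without Myc-null 4 they were 0.04 and 0.10, and without Myc-null 2 0.11 and 0.03. The sign thus rested on wild-type 2 for Myl7, and on wild-type 2 and Myc-null 1 for Myh6. Without both arrays that stood apart the differences were 0.23 and 0.14.

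The low hearts were set against the precision of the array itself. Each signal is a mean over beads, between 32 and 60 beads for Myl7 and between 40 and 47 for Myh6, and the deposited bead standard deviation was 2.32% to 4.41% of the raw signal for Myl7 and 2.54% to 5.78% for Myh6. The files do not say whether it is the spread of single beads or of their mean. For Myl7 in rising order, wild-type 2 and Myc-null 3 differed by 486 signal units, within 2 times their combined bead standard deviation of 429. The step from Myc-null 3 up to wild-type 3 was 5678 units against a combined value of 469. Wild-type 3, Myc-null 1, Myc-null 2 and wild-type 1 followed with no step between neighbours beyond 2 times the combined value, and Myc-null 4 stood 1750 units above wild-type 1, against 665. That last step rests on the scaling, since Myc-null 4 had the largest factor from raw to normalized signal (1.43) and its raw Myl7 signal of 12115.5 was below the 15512 of wild-type 1.

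Myh6 was more evenly spaced. Its order was wild-type 2, Myc-null 3, Myc-null 4, Myc-null 2, wild-type 3, wild-type 1 and Myc-null 1. Of the 6 steps, only that between Myc-null 2 and wild-type 3, of 142 units against a combined bead standard deviation of 94.9, was within 2 times that value. Some of the other steps rest on the scaling. In raw signal Myc-null 4 (927.3) was below Myc-null 3 (958.2), and wild-type 1 (1958.7) was below wild-type 3 (1993.6). Bead error covers reading the array and not dissection, RNA extraction or amplification.

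On wild-type 2, Myl7 lay 0.94 log2 units below its median over the arrays (-0.94), and 7 of 9066 units, Myl7 included, lay as far below their own medians there (0.0772%). On Myc-null 3 its deviation was -0.85, which 15 units matched (0.165%). Myh6 deviated by -0.80 on wild-type 2, where 16 units lay as low (0.176%), and by -0.54 on Myc-null 3, where 67 did (0.739%). After scaling, 5 units on wild-type 2 and 10 on Myc-null 3 lay 1 log2 unit or more below their medians. Before scaling both arrays were among the dimmer, with factors from raw to normalized signal of 1.23 and 1.12, and the part of array brightness in the low values was not tested. Above the median, Myh6 was 0.60 higher on Myc-null 1, with 42 units as high (0.463%), and 0.42 higher on wild-type 1.

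Within genotypes the log2 standard deviation was 0.51 for Myl7 and 0.55 for Myh6, against a median of 0.25 over all tested units. Both are bright genes, and among the 1536 units with a mean log2 signal over 10 the median was 0.22. Of these bright units 89 varied as much as Myl7 and 77 as much as Myh6, which places them at the 94.2nd and 95th percentile. The variation was thus among hearts of one genotype and was large for bright transcripts.

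**Figure D2:**
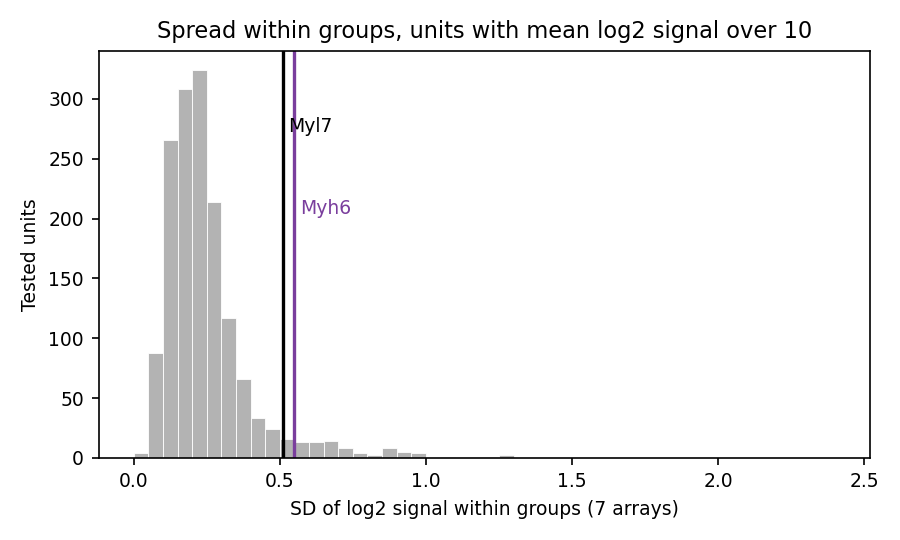
Within-genotype standard deviation of log2 signal (x axis) for the 1536 units with a mean log2 signal over 10, as a histogram of units (y axis), with vertical lines for Myl7 and Myh6. Most bright units lie near 0.22, and the lines at 0.51 and 0.55 stand in the right tail.

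Across the 7 arrays the log2 signals of Myl7 and Myh6 had a Pearson r of 0.77 and a Spearman rho of 0.46, as a description over hearts that share a chip and a scaling. With the deposited scaling the relation rested on wild-type 2 and Myc-null 3. Without these hearts, the 2 farthest from the Myl7 median, r was -0.49 and rho -0.50 over 5 arrays. That r was computed for the deposited scaling only. Under quantile normalization, raw signal and neqc, Myc-null 4 was the lowest of these 5 hearts for both genes, so the negative sign cannot be carried over to them. Leaving out wild-type 2 alone gave r = 0.59, and leaving out Myc-null 4 gave 0.93. In Myc-null 4 the deposited scaling gave the highest Myl7 (0.23 above its median) and a Myh6 below its own median (-0.23). Under quantile normalization, raw signal and neqc, Myl7 in Myc-null 4 was instead next above the 2 low hearts, at 13.82, 13.56 and 13.77 on the log2 scale. Both chains were then below their medians there, Myl7 by less than Myh6. Median scaling kept Myl7 highest in Myc-null 4, at 14.05, with Myh6 at 10.19, below its median. Myc-null 1 was the reverse case as deposited, with the highest Myh6 and Myl7 at its median. Under quantile normalization, raw signal and neqc, Myl7 in Myc-null 1 was above its median, at 13.91, 14.06 and 13.86. Deviations from the group means, which hold no difference between genotypes, gave r = 0.78.

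**Figure D3:**
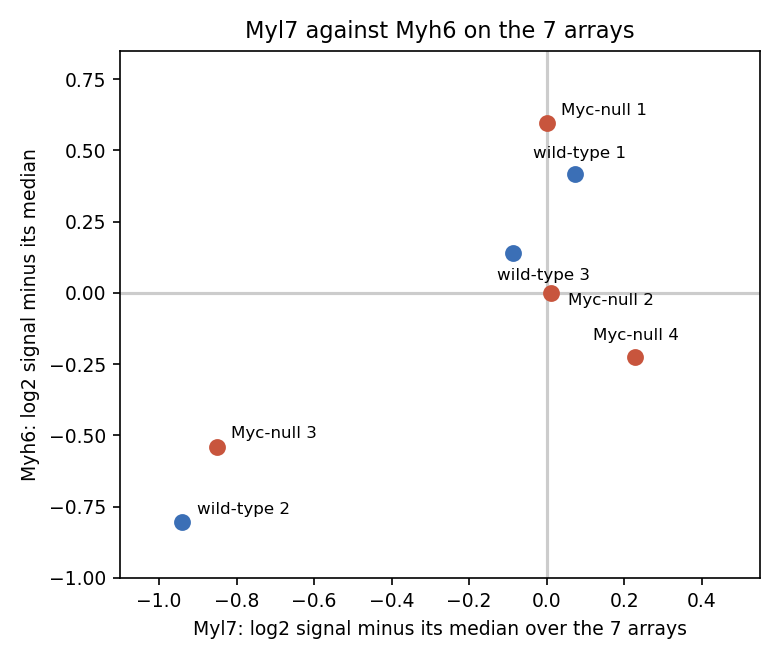
Log2 signal minus the median over the 7 arrays, for Myl7 (x axis) and Myh6 (y axis), 1 point per heart, wild-type in blue and Myc-null in red. Wild-type 2 and Myc-null 3 sit together at the lower left, and the other 5 hearts spread over Myh6 with little spread over Myl7.

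The place of the low hearts was also read under the other scalings. Under quantile normalization, median scaling, raw signal and neqc, wild-type 2 and Myc-null 3 were the lowest 2 hearts for Myl7. For Myh6 they were so under all but raw signal, where Myc-null 4 lay between them. The pair's r was 0.86, 0.79, 0.89 and 0.86 in that order. The Myl7 difference was 0.09, 0.09, 0.05 and 0.09, and the Myh6 difference 0.01, -0.04, -0.08 and 0.01, so the sign for Myh6 turned with median scaling and raw signal.

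Other genes of the atrium were thinly covered. Of 16 listed, 7 were found by name on the array and 2 were tested, Gja5 and Tbx5. The targets of Nr2f2, Kcnj3, Kcnj5 and Pam were detected on 0 arrays and that of Kcna5 on 2. Both tested genes had lower Myc-null means, 0 were called, and the median log2 difference was -0.09, against 0.03 over all tested units, of which 5004 were higher and 4062 lower. Their summed level, nearly all of it Gja5, was 1153 to 2089 in wild-type and 1156 to 1575 in Myc-null hearts.

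Gja5 encodes connexin 40, the gap junction protein of atrial muscle, the fast conduction system and arterial endothelium. Its brightest target gave 1224, 1087 and 2019 in wild-type hearts 1 to 3, and 1419, 1530, 1327 and 1084 in Myc-null hearts 1 to 4. Another Gja5 target was detected on 0 arrays, at 0.0962 to 32.1, and could not check these values. By the brightest target, the readings of Gja5 were as follows. It was high in wild-type 3, an array that stood apart, and was near its median, not low, in Myc-null 3. The log2 difference was -0.06 with a standard error of 0.24 (limma, adjusted p = 0.955), and it was 0.14 without both arrays that stood apart. Its r with Myl7 was 0.22 and with Myh6 0.43 (n = 7), and 0.63 and 0.77 in raw signal. Its sign also turned without wild-type 3 alone (0.20) and without Myc-null 4 (0.03). Of the 2 hearts low in both myosins, Gja5 was below its median in wild-type 2 and at it in Myc-null 3.

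Tbx5, a T-box transcription factor of the atria and left ventricle, was dim. Its signal was 74.6, 65.6 and 70.2 in wild-type hearts 1 to 3, and 66.2, 44.8, 61.1 and 72.6 in Myc-null hearts 1 to 4. Myc-null 2 was lowest, and on the scale used it was set to the floor of 58.2. The log2 difference was -0.12 with a standard error of 0.11 (limma, adjusted p = 0.78), and r was 0.44 with Myl7 and 0.33 with Myh6.

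Of 16 ventricular genes 3 were on the array and 2 were tested, Myh7 and Irx4, while the target of Irx2 was detected on 0 arrays. The Myc-null mean was higher for both, the median of their log2 differences was 0.04, and 0 were called. Myh7, the heavy chain of the fetal ventricle, gave 56225, 68137 and 42504 in wild-type hearts 1 to 3 and 51313, 43607, 65985 and 72119 in Myc-null hearts 1 to 4. Its raw signal was near the top of the range on each array, with between 0 and 3 targets brighter, and whether differences between hearts are compressed there was not tested. The 3 hearts with the highest normalized Myh7, Myc-null 4, wild-type 2 and Myc-null 3, were those with the largest scaling factors. In raw signal Myh7 was 56338, 55375 and 52624 in wild-type hearts 1 to 3 and 59541, 44642, 59068 and 50636 in Myc-null hearts 1 to 4, a different order. Its r was -0.40 with Myl7 and -0.61 with Myh6 as deposited, and -0.28 and 0.09 in raw signal, so no order of hearts is read from Myh7.

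The log2 difference of Myh7 was 0.07 with a standard error of 0.23 (limma, adjusted p = 0.953), and its sign turned under quantile normalization, median scaling, raw signal and neqc. Irx4, a transcription factor of ventricular muscle, was dim, with 175, 186 and 165 in wild-type and 265, 104, 142 and 251 in Myc-null hearts. It was highest in Myc-null 1 and Myc-null 4 and lowest in Myc-null 2. Its difference was 0.02 with a standard error of 0.34 (limma, adjusted p = 1), with a turned sign under the same 4 scalings, and its r was 0.24 with Myl7 and 0.23 with Myh6. Without wild-type 3 the difference was -0.12 for Myh7 and -0.03 for Irx4, and without Myc-null 4 it was -0.05 and -0.15, while without Myc-null 1 that of Irx4 was -0.18. The difference was smaller than its standard error for both genes.

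Of 28 other myosin genes 7 were on the array and 6 were tested, with 5 higher, 1 lower, 0 called and a median log2 difference of 0.09. The target of Myh1, a skeletal muscle heavy chain, was detected on 0 arrays. Apart from Myh7 the tested genes were nonmuscle or smooth muscle components. Myh10, a nonmuscle heavy chain, ranged from 537 in wild-type 3 to 1937 in wild-type 2, and in raw signal it was highest in Myc-null 1 (log2 difference 0.12, standard error 0.45, adjusted p = 0.957 by limma). Its sign turned with raw signal (-0.01), without wild-type 3 (-0.45) and without both arrays that stood apart (-0.32).

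Myl6, the essential light chain of nonmuscle and smooth muscle myosin, ranged from 4135 in wild-type 3 to 6259 in Myc-null 4 (log2 difference 0.11). The nonmuscle regulatory light chains Myl12a and Myl12b, relatives of Myl7, varied less than it, over 0.20 and 0.42 log2 units, with differences of -0.06 and 0.06, the latter turning sign under median scaling and raw signal. Mylk, a kinase of regulatory light chains, had the widest range of these, from 69.4 in wild-type 2 to 644 in Myc-null 2 (difference 0.38, standard error 0.80), and its sign turned without Myc-null 2 (-0.23) and without wild-type 2 (-0.12). Pearson r with Myl7 was -0.48 for Myh10, 0.29 for Myl6, -0.15 for Myl12a, 0.50 for Myl12b and 0.36 for Mylk. The authors' deposited table of difference scores gave -3.90 to 3.73 for targets of the atrial, ventricular and other myosin genes.

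**Figure D4:**
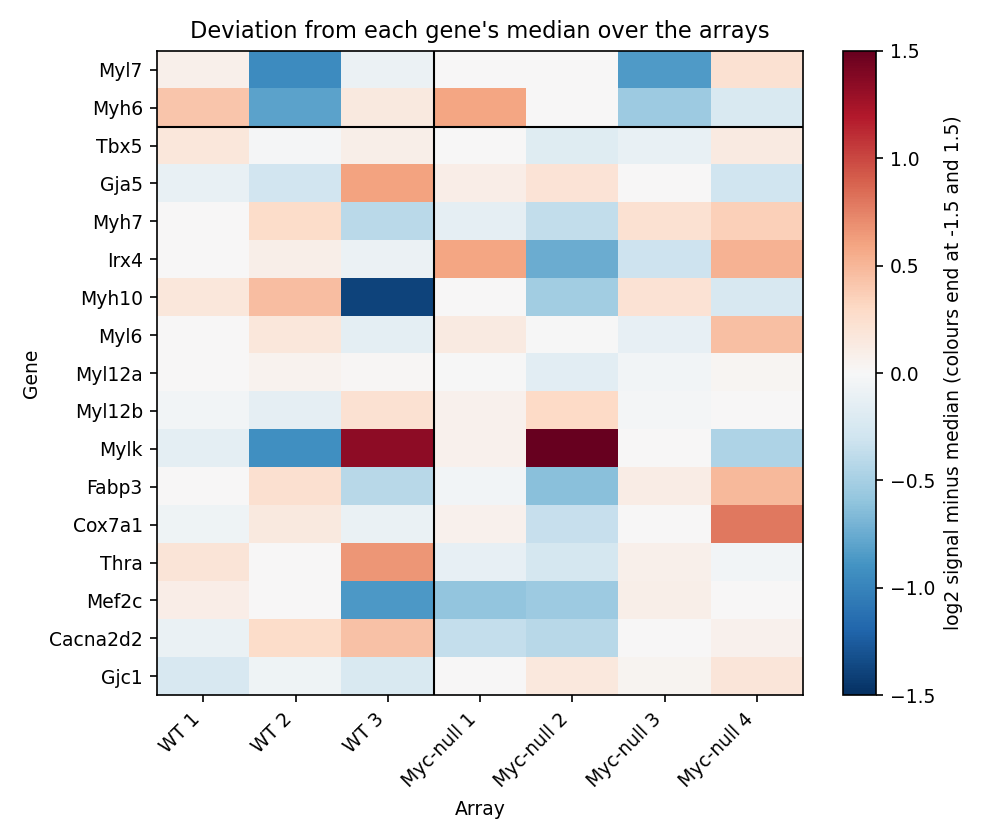
Log2 signal minus its median over the 7 arrays (colour, blue below and red above) for the 2 atrial myosins at the top and the named heart and myosin genes below, with arrays in columns and a line between wild-type and Myc-null hearts. Myl7 and Myh6 are blue in wild-type 2 and Myc-null 3, and none of the other genes drawn is as blue in both columns.

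Genes that atrial and ventricular muscle share were also read, to see whether cardiac muscle as a whole was low in the same hearts. Of 36 listed, 10 were on the array and 8 were tested, with 5 higher, 3 lower, 0 called and a median log2 difference of 0.09. Their summed level was 34122, 38960 and 27374 in wild-type hearts 1 to 3 and 33858, 25339, 37266 and 46467 in Myc-null hearts 1 to 4. The sum was lowest in the 2 arrays that stood apart, with r = -0.19 against Myl7 and -0.42 against Myh6. In wild-type 2 and Myc-null 3 it was 0.19 and 0.13 log2 units above its median as deposited. In raw signal it was at -0.07 and 0.00 there, with r of 0.15 and 0.38. Fabp3, the heart fatty acid binding protein, ranged from 10330 in Myc-null 2 to 22231 in Myc-null 4, with a difference of 0.04 that turned sign under the 4 other scalings. Cox7a1, the muscle form of a cytochrome oxidase subunit, had a difference of 0.13 and was highest in Myc-null 4 (8148), without which the differences were -0.13 for Fabp3 and -0.09 for Cox7a1. Fabp3 and Cox7a1 made up most of the summed level in every heart, so the sum is mainly a reading of these genes.

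Of 18 cardiac transcription factors 8 were on the array and 5 were tested, with 1 higher, 4 lower, 0 called and a median of -0.09. Thra, a thyroid hormone receptor of heart muscle, ranged from 465 in Myc-null 2 to 881 in wild-type 3, with a log2 difference of -0.37 (standard error 0.17, adjusted p = 0.76 by limma). Mef2c, a MADS-box factor of muscle genes, ranged from 340 to 664 with a difference of -0.01, which was 0.09 to 0.17 without wild-type 1, wild-type 2, Myc-null 1 or Myc-null 2. Thra had r = 0.00 with Myl7 and 0.12 with Myh6, and Mef2c -0.36 and -0.49.

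Of 11 genes of the pacemaker node and atrioventricular canal 5 were on the array and 4 were tested, with 2 higher, 2 lower, 0 called and a median of -0.10. Gjc1 encodes connexin 45, a gap junction protein of those regions. Its signal was 541, 615 and 548 in wild-type and 642, 714, 662 and 729 in Myc-null hearts. The groups did not overlap, as was so for 619 of 9066 units (6.83%). The log2 difference was 0.27 with a standard error of 0.10, and it did not pass the test (limma, adjusted p = 0.76). Cacna2d2, a calcium channel subunit, had a difference of -0.38 (standard error 0.18, adjusted p = 0.76). Neither followed the atrial myosins, with r = 0.06 and -0.35 against Myl7 and -0.31 and -0.45 against Myh6.

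Markers of other cells in or near a dissected heart were read beside the low hearts, and none of these lists held a called gene. Endothelial and endocardial genes (6 tested of 15; 3 higher, 3 lower, median -0.04) summed to 2927 to 4062 in wild-type and 3671 to 4417 in Myc-null hearts. Epicardial genes (5 of 11; 1 higher, 4 lower, median -0.42) summed to 1507 to 2374 and 1284 to 2128. Mesenchymal and valve genes (7 of 17; 3 higher, 4 lower, median -0.04) summed to 14411 to 21565 and 9314 to 16919. These lists cover the tissue layers that a heart holds beside its muscle.

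Erythroid genes (5 of 12; all 5 higher, median 0.37) summed to 77480 to 92921 and 84731 to 122152, with Myc-null 2 highest. Cartilage genes (4 of 10; 3 higher, 1 lower, median 0.50) summed to 457 to 962 and 489 to 3101, again with Myc-null 2 highest. Smooth muscle was read by Acta2 alone (1 of 6; lower, -0.16), at 874 to 1362 and 749 to 1224. Myc-null 2 thus had the highest summed blood and cartilage signal, and neither myosin was high or low in that heart.

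Leukocyte (2 of 9; both lower, median -0.10), neural (2 of 8; both lower, median -0.08) and liver and lung genes (2 of 10; both higher, median 0.25) were dim, with summed levels between 253 and 507 in any heart. Of 12 skeletal muscle genes 1 was on the array, Chrna1, which was detected on 1 array and not tested. Over the 7 arrays the summed levels had r with Myl7 between -0.45 and 0.35 and with Myh6 between -0.61 and 0.54, over all lists of 2 or more tested genes. The highest belonged to the epicardial list, whose sum was 1507 in wild-type 2 and 1360 in Myc-null 3, with 1284, its lowest, in Myc-null 4. Of its 2 brightest genes, Upk3b gave 580 and 558 of these first 2 sums. The other, Wt1, gave 429 and 559, its highest, with r = -0.01 against Myl7 and 0.05 against Myh6. The mean deviation of the 5 tested genes from their medians was 0.05 in wild-type 2 and -0.48 in Myc-null 3, so the list did not move as one. The part of epicardial tissue or of the share of atrium in these values was not tested.

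The named genes most like each myosin were taken among 1934 named genes with a mean log2 signal over 7 and a range of at least 0.5 log2 units, by Pearson r over the 7 arrays. The median r of those genes was -0.04 with Myl7 and -0.15 with Myh6, and 32 and 8 genes had r over 0.7. The values of r are a ranking and no more. All points share a chip, a scaling and the same 2 low hearts.

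Nearest to Myl7 was Txnl4a, a spliceosome component (r = 0.95), at 1725, 1249 and 1771 in wild-type and 1611, 1587, 1332 and 1847 in Myc-null hearts. It was low in the same 2 hearts as Myl7, under all 5 scalings, over a range of 0.56 log2 units against 1.17. Its r with Myl7 was 0.92 to 0.97 under the 4 other scalings. Next came Zfp579, a zinc finger protein (0.87), Mrps6 of the mitochondrial ribosome (0.85), the proteasome chaperone Psmg3 (0.85), the membrane protein Tmem176a (0.83) and Rrp12 of ribosome assembly (0.82). Myh6 was 15th in this order. None of these 6 is a cardiac muscle gene in the lists used. Least like Myl7 were the endothelial adhesion molecule Pecam1 (r = -0.93), the transcription factor Klf3 (-0.86) and the chaperone Dnajc5 (-0.83). Pecam1 was 571, 710 and 616 in wild-type and 535, 543, 767 and 470 in Myc-null hearts, highest in the 2 hearts where Myl7 was low. This rested on the scaling, with r = -0.74 under quantile normalization and neqc, -0.76 under median scaling and 0.03 in raw signal. The summed endothelial list did not share this, with r = 0.03.

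Nearest to Myh6 was Zfp579 (r = 0.90), at 1212, 929 and 1235 in wild-type and 1311, 1230, 869 and 1121 in Myc-null hearts. It was thus high in Myc-null 1 and low in wild-type 2 and Myc-null 3, over a range of 0.59 log2 units against 1.40. The matrix glycoprotein Emilin2 (0.84) and the membrane collagen Col23a1 (0.79) followed, and Myl7 was the 4th of 1934 at 0.77. After it came Ank1, an ankyrin of red cells and muscle (0.75), and Upk3b, a uroplakin of epicardium and other mesothelium (0.74). Least like Myh6 were Sh3d19 (-0.85), Ammecr1l (-0.81) and the lysosomal GTPase Arl8b (-0.79). Zfp579 was the only gene in the highest 6 of both myosins.

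**Figure D5:**
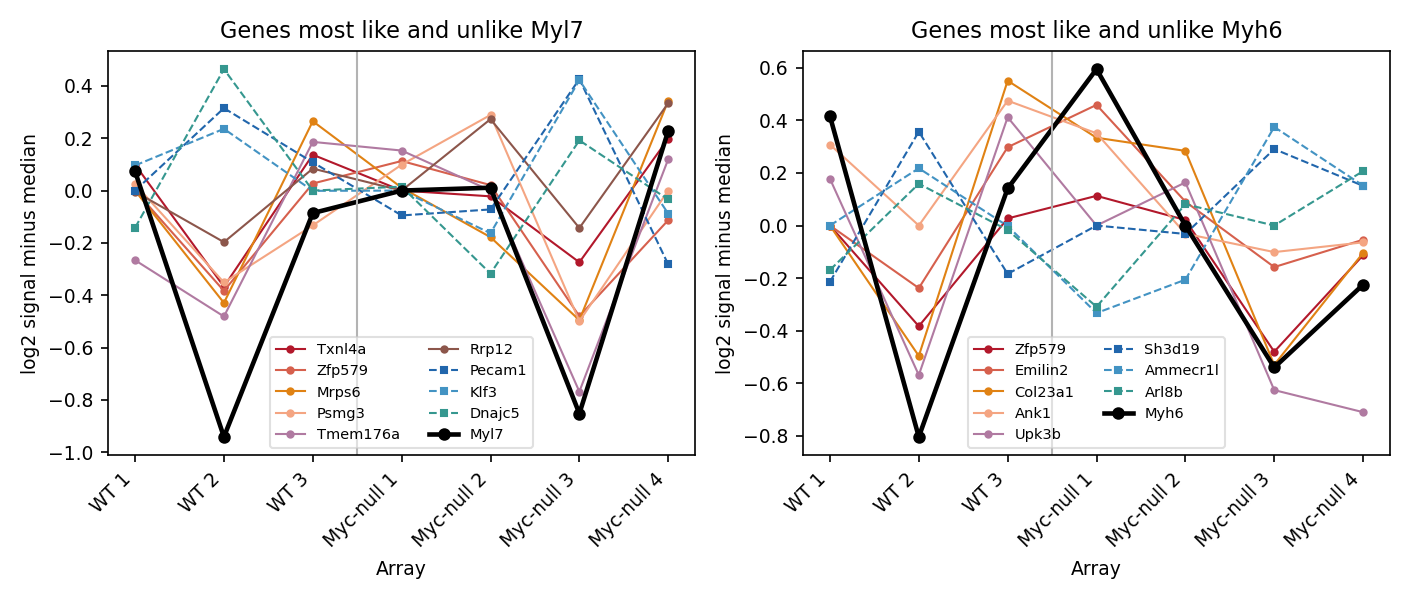
Log2 signal minus the median over the 7 arrays (y axis) by array (x axis) for Myl7 (left) and Myh6 (right), in black, with the named genes of highest r (solid lines, without Myl7 itself on the right) and lowest r (dashed lines). The black lines dip in wild-type 2 and Myc-null 3, deeper than the lines of nearly all genes that follow them.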

How the data were processed

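RNA of 7 hearts was read on Illumina mouse reference BeadChips, 1 array per heart. Per the labels, the authors normalized signal intensity by the rank-invariant method in BeadStudio, for which the submitters' processing notes give version 1.5.0.34 and the file headers 1.5.1.3. The deposited normalized intensity was used, and each array was a multiple of its raw intensity by a factor of 0.809 to 1.43, apart from rounding and an offset. Files of single arrays give raw intensity averaged over beads, the number of beads, and detection as a fraction (1 minus its p-value), per the file headers. The difference score the authors deposited has no stated direction. Genome build and strain are not given in the sources used here.

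Signals under 58.2, the 5th percentile of detected targets, were set to that floor before log2. Fold changes of dim genes are therefore understated. Targets with detection of at least 0.99 on at least 3 arrays were kept (9441), without 4 control targets. The brightest target stood for a gene, which gave 3396 named and 5670 unnamed units. The files name no genes. Where 1 or 2 zeros lead the number in a target identifier, it was looked up as an NCBI gene identifier in the RefSeq gene table (GRCm38.p6), and 8884 of 9523 matched (93.3%). Another 9 were named by accession. Groups, taken from sample titles, entered a limma fit (version 3.58.1, under R 4.3.3, with lmFit and eBayes) that was 2-sided, with Benjamini-Hochberg adjustment over 9066 units, and that had been tested on simulated data. Precision is limited by the few arrays.

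The members and all lists were chosen with earlier results of these data known. Named are both members, the tested genes of the atrial, ventricular and other myosin lists, the 2 brightest tested genes of each other list, and per member the 6 genes of highest and 3 of lowest r. Not all of the brightest genes of other cell types are described. Alternatives were 4 other scalings, 2 other floors, 2 other detection filters, every target on its own, leaving out arrays and a replicate block. The order of hearts of 8 other genes and 1 summed list under the other scalings was added after seeing the data.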

Additional observations from a re-analysis of the deposited data

Results flagged for a closer look

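Of 34 genes examined within the 4 Myc-null hearts, 2 had a heart whose gap to the nearest other heart, divided by the range, was over Dixon's 95% critical value for 4 samples. Chance gives this in about 1 of 20 groups. Csf1r, a receptor of macrophages, had a log2 signal of 6.75 in Myc-null 2, and Tubb3, a neuronal tubulin, had 5.96 in Myc-null 4. Both are dim, and both flags rest on the floor. Tubb3 lay at the floor in the other 3 Myc-null hearts, and Csf1r in Myc-null 1 and Myc-null 3. Before the floor the signals in Myc-null hearts 1 to 4 were 28.3, 108, 47.7 and 62.7 for Csf1r. For Tubb3 they were 39.2, 41.1, 51.8 and 62.4, so neither gene had 1 heart far from the rest. Neither atrial myosin passed this limit.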

How the results depend on the processing

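The count of called genes was 0 under all 18 alternatives. The count at an unadjusted p under 0.05, 485, was 188 with raw signal and 311 to 718 with each array left out, the lowest without Myc-null 2. The r of Myl7 with Myh6 was 0.89 with raw signal and 0.59 to 0.93 with each array left out, lowest without wild-type 2. With each array left out the log2 difference ran from -0.15 to 0.40 for Myl7 and -0.32 to 0.29 for Myh6, and the median from -0.21 to 0.04 for other atrial and -0.10 to 0.23 for ventricular genes. No pairing by replicate number was seen: deviations of same-numbered hearts had r of 0.17, -0.26 and -0.31, and none of the 3 wild-type hearts matched its own number best. With litters not given and deviations from means of few arrays, this cannot show that the hearts were unpaired. With the replicate block the differences were 0.04 for Myl7 and 0.10 for Myh6, and 370 genes had an unadjusted p under 0.05. Signs turned for Gja5 (0.03), Myh7 (-0.05), Irx4 (-0.15), Myl6 (-0.01), Fabp3 (-0.13) and Cox7a1 (-0.09). Only Myc-null hearts have a replicate 4, so these differences and turns are the same as without Myc-null 4 and are counted again below. The r of the pair was not run with the block.

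Of 255 single-gene results, 212 kept their direction and side of the threshold and 43 turned sign, all far from the threshold (smallest adjusted p 0.391). Quantile normalization turned Myh7 (-0.05), Irx4 (-0.08) and Fabp3 (-0.02). Median scaling turned Myh7 (-0.01), Irx4 (-0.06), Myl12b (-0.01) and Fabp3 (-0.04). Raw signal turned Myh7 (-0.04), Irx4 (-0.07), Myh10 (-0.01), Myl12b (-0.05) and Fabp3 (-0.07). With neqc Myh7 (-0.04), Irx4 (-0.06) and Fabp3 (-0.02) turned, and without both wild-type 3 and Myc-null 2, Gja5 (0.14) and Myh10 (-0.32). With each array left out, 10 of 15 genes turned at least once: Gja5 (-0.24 to 0.20), Myh7 (-0.12 to 0.22), Irx4 (-0.18 to 0.27), Myh10 (-0.45 to 0.47), Myl6 (-0.01 to 0.19), Myl12b (-0.01 to 0.17), Mylk (-0.23 to 1.01), Fabp3 (-0.14 to 0.24), Cox7a1 (-0.09 to 0.29) and Mef2c (-0.31 to 0.17). These turns came without wild-type 3 or Myc-null 4 for Gja5, Myh7 and Fabp3, without these or Myc-null 1 for Irx4, without wild-type 3 for Myh10, without Myc-null 4 for Myl6 and Cox7a1, and without wild-type 2 or Myc-null 2 for Myl12b and Mylk. The cause was not tested. The limma standard error had a median of 0.18 over units, and each member had 1 target of unknown sequence, so cross-hybridisation was not tested.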

Other observations

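Targets without a gene name were ranked too, an alternative chosen after seeing the data, over 4814 units. Among them were 2 targets, singled out after their values were seen, that were low in the same hearts as the atrial myosins and over wider ranges. The target scl22721.9.1_12-S gave 1563, 332 and 1976 in wild-type and 1654, 1154, 390 and 932 in Myc-null hearts, a range of 2.57 log2 units, with r = 0.86 against Myl7 and 0.92 against Myh6. The target scl43736.6_95-S gave 918, 341 and 1204 and 994, 1479, 386 and 797, a range of 2.12, with r = 0.86 and 0.78. They were not the only such targets. For example, scl32299.7.1_25-S was also lowest in wild-type 2 (220) and Myc-null 3 (299), with 414 to 1280 in the other hearts. The files pair none of these targets with a gene, and most tested units were unnamed.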
